A study of Homo sapiens with 8 samples.

Results

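The array labelled miR-143-3p compared HCT116 cells, a human colorectal cancer line, transfected with that miRNA with mock HCT116 cells. RNA of the transfected cells was labelled with Cy5 and RNA of the mock cells with Cy3, and both were hybridised to 1 two-channel Agilent array of 60-base probes. It was 1 of 8 such arrays, which also covered miR-139-5p, miR-139-3p and miR-143-5p in HCT116 cells and 4 strands of the miR-30 family in PANC-1 pancreatic cancer cells. Mock cells received no transfection per the labels, so the effect of the labelled miRNA and the effect of transfecting any small RNA cannot be told apart. Of the 58201 probes on the array, 26107 were members here, being well above background in 1 channel or both. They represented 20113 of 43315 gene names, each by its brightest probe. There was 1 array per miRNA, so no value below has an error across replicates and no test was possible. A gene was called lower or higher when its log2 ratio of Cy5 over Cy3 was at least 1 away from 0, a 2-fold difference.

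A miRNA guides Argonaute proteins to mRNAs that pair with its seed, the bases near its 5′ end, and lowers the level or translation of those mRNAs. miR-143 and miR-145 are neighbouring genes of 1 cluster that is strongly expressed in smooth muscle and stromal cells and is often low in colorectal tumours. Targets described for miR-143-3p include the glycolytic enzyme HK2, the kinase MAPK7 and the DNA methyltransferase DNMT3A. An array of mRNA probes does not measure the transfected miRNA itself, so the label was checked through the seed.

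The mature strands of the cluster, all but miR-145-5p, are shown because the check of the label turns on their seeds. They are the RefSeq sequences on GRCh38.p14, written 5′ to 3′ with the seed, bases 2 to 8, in capitals. The strands of miR-143 lie on the plus strand at chr5:149428978-149428998 for miR-143-3p and chr5:149428944-149428965 for miR-143-5p, and miR-145-3p lies at chr5:149430699-149430720 on the same strand.
hsa-miR-143-3p: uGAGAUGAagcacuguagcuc
hsa-miR-143-5p: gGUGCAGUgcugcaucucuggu
hsa-miR-145-3p: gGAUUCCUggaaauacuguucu
No pair of these 3 strands has the same seed.

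Genes whose probe held a match to the miR-143-3p seed were not lower than the other genes on this array. A match was a heptamer complementary to bases 2 to 8 (TCATCTC) or to bases 2 to 7 followed by A (CATCTCA), searched on the strand of the transcript as the probe gives it. Such a heptamer was in the probe of 200 detected genes, 0.994% of all. Their median log2 ratio was 0.028 and that of the other genes was 0.0053, so the difference of the medians was 0.023. The difference of the means was 0.018. Of the 200 genes, 86 were below 0, or 43.0%, where 48.6% of all detected genes were below 0 and 51.4% above. 2 of them were called lower, or 1%, beside 0.925% of all detected genes. These 2 were HK2 and GFPT1, the rate-limiting enzyme of hexosamine synthesis, at -1.68 and -1.29. GFPT1 was at -0.89 against the miR-139 mocks and -0.64 with the median over its probes. The heptamers were counted only within 60-base probes, which cover a small stretch of each transcript.

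The same difference of means was then taken for every seed of the RefSeq mature miRNAs that was matched in at least 100 detected genes, a step added after the values had been seen. On 6 of the other 7 arrays, the seed of the labelled miRNA was the lowest of all seeds by means. On the miR-30c-2-3p array it ranked 5. By the difference of medians it ranked 47 on the miR-139-5p array, 252 on the miR-139-3p array and 15 on the miR-143-5p array. On the PANC-1 arrays it ranked 1 for miR-30c-5p and miR-30a-5p, 2 for miR-30a-3p and 60 for miR-30c-2-3p by medians. The difference of means for the labelled seed was -0.089 on the miR-139-5p array, -0.138 on the miR-139-3p array and -0.135 on the miR-143-5p array. On the PANC-1 arrays it lay between -0.175 and -0.125. These ranks are not independent of each other, since miR-30c-5p and miR-30a-5p have the same seed. Here, the seed of miR-143-3p, which miR-4770 and miR-6088 also carry, ranked 911 of 1480 by means and that of miR-143-5p ranked 1264. By medians they ranked 1129 and 1352. The lowest seed by means was that of miR-145-3p, at a difference of -0.17, with 134 genes, 0.666% of all detected genes. The next was that of miR-541-5p, at -0.12.

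The heptamers of miR-145-3p were AGGAATC and GGAATCA, which overlap when both are present. Genes with either had a mean log2 ratio of -0.18 and a median of -0.056, against a mean of -0.012 and a median of 0.0060 in the 19979 genes without. The difference of the medians, -0.062, ranked 26. Of the 134 genes, 87 were below 0, or 64.9%. 7 were called lower, or 5.22%, beside 0.896% of the genes without, and 0 were called higher. The 26 genes whose probe held the full 8-base match AGGAATCA had a mean of -0.30 and a median of -0.13. Of these 26, 19 were below 0 and 4 were called lower, where 48.6% and 0.925% of all detected genes were. The seed of miR-145-5p, the other strand, ranked 155 by means, at -0.055. On the other 3 HCT116 arrays, the miR-145-3p seed ranked 223 by means for the 3p strand of miR-139, 418 for its 5p strand and 1108 for miR-143-5p. In PANC-1 cells, the miR-145-3p seed ranked 47 of 1507 by means where miR-30c-5p was the label, at a difference of -0.052. With miR-30a-5p as the label its rank was 61 of 1507, at -0.041, beside -0.17 on the present array. Ranks were 948 of 1501 under the label miR-30c-2-3p, and 1075 of 1535 under miR-30a-3p. A low rank of this seed was thus also seen on arrays with other labels. In this check, genes matching the labelled seed were not lower on this array than the other genes. The check covered only the probes, and its ranking was added after the values had been seen. Which miRNA the Cy5 cells held was not tested, and the array is named by its label throughout.

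The 7 genes called lower with a miR-145-3p heptamer in the probe were PSMA1, GMNN, STK24, RPS23, NFYC, TRIT1 and ENOSF1. They were chosen by their values. Stretches of 30 bases of the probes of 4 of them are shown for the match, which is in capitals. The coordinates are those of the files, on hg19, and the letters are those of the transcript strand.
PSMA1, chr11:14526599-14526628, minus strand: tatgttttAGGAATCAgtccagatgtgagt
GMNN, chr6:24786112-24786141, plus strand: atgccaactctGGAATCAaatttccttgtt
STK24, chr13:99104939-99104968, minus strand: ccctttcggcgtgcataAGGAATCActgtg
NFYC, chr1:41236715-41236744, plus strand: AGGAATCAatatttcaatatgttgagtgtg
PSMA1, a subunit of the proteasome core, had a log2 level of 12.4 in mock cells and 10.2 in the Cy5 channel, a log2 ratio of -2.15. A dim other probe of PSMA1, without the heptamer, was at 0.031, and for that disagreement PSMA1 is not among the 15 lowest genes below. GMNN, which encodes geminin, the inhibitor of the licensing factor CDT1, had levels of 10.1 and 8.36, a ratio of -1.75. STK24, a kinase of the Hippo-related MST family, had levels of 10.1 and 8.49, a ratio of -1.62. Its other probe, without the heptamer, was at -0.30, and the median over both was -0.96. NFYC, a subunit of the CCAAT-binding factor NF-Y, was at -1.10, and its 3 other detected probes were at -0.63 to -0.45. RPS23, a protein of the small ribosomal subunit, was at -1.12, and its other probe, without the heptamer, was at -0.53. Its call was lost against the miR-139 mocks, at -0.93, under median centring, at -0.94, and with the median over its probes, at -0.83. TRIT1, a tRNA-modifying enzyme, was at -1.04 and ENOSF1 at -1.02 (-0.99 after the GC curve). On the miR-143-5p array, PSMA1 was at 0.16, GMNN at -0.17, STK24 at 0.19 and NFYC at 0.088. GMNN was at -0.88 on the miR-139-3p array.

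Of the 22 genes written down as miR-143-3p targets from general knowledge, 20 were detected. Their median log2 ratio was 0.019, beside 0.0055 over all detected genes. 9 were below 0, where 48.6% of all detected genes were, and 11 above. 2 were called lower, beside 0.925% of all detected genes, and 0 higher. HK2, the hexokinase that commits glucose to glycolysis in many tumours, had a level of 9.66 in mock cells and 7.98 in the Cy5 channel, a ratio of -1.68. HK2 was at -2.25 on the miR-139-3p array, at 0.10 on the miR-143-5p array and at 0.060 on the miR-139-5p array. CD44, the hyaluronan receptor, had levels of 12.2 and 11.1, a ratio of -1.02, and was at -2.74 on the miR-139-3p array. The call of CD44 was lost after the GC curve, at -0.96, under median centring, at -0.94, and with the median over its probes, at -0.54. The other 18 detected targets lay between -0.43 and 0.53.

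Among members of RAS and ERK signalling, the receptor ERBB3 was at -0.43, BRAF at -0.11, ELK1 at -0.09, IGF1R at 0.05, AKT1 at 0.18 and MAPK7 at 0.53. Of the 7 genes of this group, 4 were above 0, where 51.4% of all detected genes were. 0 were called in either direction, beside 0.925% of all detected genes lower and 0.517% higher. In the group for cytoskeleton, adhesion and invasion, MACC1 was at -0.15, the actin-bundling protein FSCN1 at 0.01, LIMK1 at 0.26, FNDC3B at 0.34 and the motor MYO6 at 0.35. The transcription factor KLF5 was at -0.32, the RNA-binding protein MSI2 at -0.13, DNMT3A at 0.25, MDM2 at -0.07 and BCL2 at 0.03. The direction of 8 of the 20 targets turned against the miR-139 mocks, where KLF5 was at 0.75, MDM2 at 0.50, MACC1 at 0.30, BRAF at 0.017, BCL2 at -0.058, DNMT3A at -0.079, FSCN1 at -0.30 and LIMK1 at -0.36. MSI2 turned to 0.18 with the median over its probes. TLR2 and PTGS2 were not well above background in either channel.

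3 of the 20 detected targets had a miR-143-3p heptamer in the probe, each with the 8-base match TCATCTCA. Their stretches are shown because the same 8 bases came with a different ratio in each.
HK2, chr2:75120348-75120377, plus strand: tgaatagcaaaTCATCTCAaatccttgagc
MSI2, chr17:55757047-55757076, plus strand: actacatctcaTCATCTCAcgaatctgctg
MAPK7, chr17:19286653-19286682, plus strand: attctgcaggtTCATCTCAgacccaccttt
HK2 was called lower at -1.68, MSI2 was at -0.13 and MAPK7 was at 0.53. Over all 30 detected genes with this 8-base match, 12 were below 0, 1 was called lower and the median was 0.058. Of all detected genes, 48.6% were below 0 and 0.925% were called lower.

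Over the whole array, 186 of 20113 detected genes were called lower, which is 0.925%, and 104 were called higher, which is 0.517%. The Cy3 channels of both miR-143 arrays were at least 2-fold apart at 4 of 19571 genes, and those of both miR-139 arrays at 6 of 19563. Between a miR-139 and a miR-143 mock channel, 226 to 229 of 19734 to 19912 genes were at least 2-fold apart, or 1.14% to 1.16%. The labels do not say whether arrays had mock RNA of 1 extract in common. With the miR-139 mock channels in place of the array's own, 478 genes were lower and 487 higher. Of the 186 genes called lower against the own mock, 184 stayed below 0 against the miR-139 mocks and 144 stayed called. Of the 104 called higher, 103 stayed above 0 and 86 stayed called. The genes nearest the threshold were OVCA2 at -1.001 and LOC728739 at -0.9995 on the lower side, and CLIC3 at 1.001 and HGSNAT at 0.999 on the higher side.

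Of the 186 genes called lower, 174 or 93.5% were protein-coding in RefSeq, and of the 104 called higher 67 or 64.4%, beside 65.5% of all detected genes. Among the genes called higher, 21 or 20.2% were small nucleolar or Cajal body RNAs, which made up 1.13% of all detected genes. Both channels were well above background for 184 of the lower and for all 104 of the higher genes. The 300 probes with 10 spots each had a median SD of 0.0433 in log2 ratio, a spread within the hybridisation and not between cultures. The Cy3 and Cy5 medians were 23.2 and 23.8 over local backgrounds of 18 and 20, 0 spots were saturated, and the medians of 4 equal areas of the surface lay between -0.0048 and 0.0053.

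The ratios of this array followed the base composition of the probes more than those of any other array. Across the 26107 probes, Pearson's coefficient of log2 ratio with the number of G and C bases was 0.24 and Spearman's was 0.27, given as a description across probes that share 1 hybridisation. On the other 7 arrays Pearson's coefficient lay between -0.035 and 0.13. The median log2 ratio was -0.070 in probes with 18 or fewer G and C bases, -0.058 with 19 to 21, -0.0047 with 25 to 27, 0.062 with 31 to 33 and 0.12 with 37 or more. The quintile of probes highest in GC had a median of 0.069 and the lowest quintile one of -0.059, a difference of 0.13, beside -0.022 to 0.067 on the other arrays. Of all member probes, 0.801% were at least 2-fold lower and 0.44% at least 2-fold higher. The share of probes at least 2-fold lower was 1.21% with 19 to 21 G and C bases and 0.164% with 31 to 33, while the share at least 2-fold higher was 0.267% and 0.552%.

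After subtraction of a smooth curve of log2 ratio on GC, 173 genes were lower and 96 higher. Pearson's coefficient across probes was then 0.072, beside 0.24 before, so the curve left part of the trend. Of the 186 genes called lower, 169 stayed called, and 92 of the 104 called higher. The miR-145-3p seed remained the lowest, at -0.18, and its difference of medians, -0.089, then also ranked 1. Within the probes of 24 or fewer G and C bases, genes with a miR-145-3p heptamer had a mean of -0.33 and those without -0.085. In probes with 25 to 27 the means were -0.22 and -0.033, and in probes with 28 or more they were 0.014 and 0.11. Genes with a miR-143-3p heptamer differed in mean from those without by -0.014, -0.011 and 0.042 in the same classes.

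The lowest genes by the naming rule included members of secretion, respiration and the cell cycle. FAM122B (PABIR2), at a level of 10.5 in mock cells and 8.34 in the Cy5 channel, was lowest at -2.18, a 4.53-fold difference, and was at -1.88 on the miR-139-3p array and -1.26 on the miR-143-5p array. Its 2 dimmer probes were at -0.65 and -0.47. SEC61B, the beta subunit of the channel through which proteins enter the endoplasmic reticulum, had levels of 12.6 and 10.5, a ratio of -2.11. SEC61B lay between -0.36 and 0.16 on the other 3 HCT116 arrays. SDHD, a membrane anchor of succinate dehydrogenase, had levels of 9.70 and 7.76, a ratio of -1.94, and its other probes were at -1.54 and -1.36.

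SUMF1, the enzyme that activates sulfatases, was also at -2.11, with -1.69 on the miR-143-5p array. The long noncoding RNA UCA1 was at -1.89 and lay between -1.48 and -0.31 on the other HCT116 arrays. BAG2, a cochaperone of HSP70, was at -1.77, and ZMPSTE24, the protease that matures lamin A, was at -1.69. DKK1, a secreted inhibitor of Wnt signalling, was at -1.68, with -1.91 on the miR-139-3p array. The SRC-family kinase YES1 and the ciliary protein TCTN3 were both at -1.68, the matricellular protein NOV (CCN3) at -1.67, the spindle checkpoint protein MAD2L1 at -1.65 and the 14-3-3 protein YWHAQ at -1.64. GMNN and HK2, given above, completed the 15 lowest. NOV was at -0.65 against the miR-139 mocks, and with the median over its probes FAM122B was at -0.65, so these calls were lost there. BAG2, ZMPSTE24, SEC61B, GMNN and YWHAQ lay between -0.35 and 0.16 on the arrays of miR-139-5p and of miR-143-5p. On the miR-139-3p array these genes lay between -0.88 for GMNN and -0.07 for ZMPSTE24, with BAG2 at -0.81. NOV was at -1.41 on the miR-139-3p array, -1.35 on the miR-143-5p array and -0.37 on the miR-139-5p array.

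Small noncoding RNAs made up much of the high end. SNORD46 had a level of 6.93 in mock cells and 8.93 in the Cy5 channel, a ratio of 2.002. The other small nucleolar and Cajal body RNAs among the 15 highest were SCARNA11 at 1.70, SNORD105B at 1.69, SNORA54 at 1.68, SNORD12C at 1.67 and SNORD15A at 1.66. RNA5-8S5, a 5.8S ribosomal RNA gene, was at 1.83, the U2 spliceosomal RNA gene RNU2-1 at 1.53 and RN7SK, the RNA that holds the elongation factor P-TEFb inactive, at 1.52. Ribosomal and spliceosomal RNA genes have near-identical copies, so these values are of their families. On the miR-143-5p array, 5 of the 6 small nucleolar and Cajal body RNAs were between 1.24 and 1.53 and SNORD46 was at 1.86, with RNA5-8S5 at 2.39.

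Of the protein-coding genes at the high end, GATSL3 (CASTOR1), the arginine sensor of the mTORC1 pathway, had levels of 8.84 and 10.7, a ratio of 1.86. PMEPA1, an inhibitor of TGF-β signalling, was at 1.80, and CERCAM was at 1.69. The chemokine CXCL1 was at 1.51 and BIRC3, an inhibitor of apoptosis, at 1.46. PMEPA1 and CXCL1 lay between -0.23 and 0.42 on the other 3 HCT116 arrays, while BIRC3 was at 1.35, 1.40 and 1.03 there. COX1 was at 1.89, from a probe that the files place on chromosome 1, where a nuclear copy of mitochondrial DNA lies. Against the miR-139 mocks COX1 was at 0.99 and RNU2-1 at 0.79, both short of the 2-fold rule.

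Mitotic genes were lower together. All 41 of the mitosis list were detected and all 41 were below 0, where 48.6% of all detected genes were. The median was -0.74, and 8 of 41 were called lower, beside 0.925% of all detected genes. CDK1, the kinase that drives entry into mitosis, had levels of 9.86 and 8.47, a ratio of -1.38, and its partner CCNB1 was at -1.25. The kinesin KIF20A was at -1.32, the checkpoint kinase BUB1 at -1.19 and AURKA at -1.18. With the median over probes CDK1 was at -0.76 and CCNB1 at -0.996. At the other end, the condensin subunit NCAPH was at -0.07 and PLK1 at -0.04. By role, the medians were -0.81 for 13 kinases and cyclins, -0.71 for 23 spindle, kinetochore and condensin genes and -0.50 for 5 genes of mitotic exit.

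DNA replication genes were lower as a group as well, with 42 of 45 below 0, where 48.6% of all detected genes were, and a median of -0.50. 5 were called lower, beside 0.925% of all detected genes, and 0 higher. The helicase subunit MCM6 had levels of 10.4 and 8.88, a ratio of -1.52, and TYMS, the enzyme that makes thymidylate, had levels of 12.6 and 11.1, a ratio of -1.51. UHRF1, which maintains DNA methylation, was at -1.38 and the helicase subunit MCM3 at -1.01, or -0.94 under median centring. The sliding clamp PCNA was at 0.16 and GINS1 at 0.26. The medians were -0.51 for licensing and helicase genes, -0.47 for polymerase and clamp genes and -0.68 for nucleotide supply and S-phase regulators. With the GC curve subtracted, the medians of the mitosis and replication lists were -0.73 and -0.44.

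These lists also differed between the mock channels of different arrays. The mock level of the mitosis genes on this array differed from that on the miR-139 arrays by a median of -0.57 (here minus there), and that of the replication genes by -0.42. Against the miR-139 mocks, the medians of the Cy5 channel were -1.22 and -0.90. On the miR-143-5p array the same mitosis genes had a median of -0.21 and the replication genes one of -0.25, and on the miR-139-3p array they had medians of -0.24 and -0.80. The part of such differences between mock channels in these results was not tested.

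Interferon response genes were on the higher side. Of 49 on the list 42 were detected, and 6 of these were below 0, where 48.6% of all detected genes were. 3 were called higher, beside 0.517% of all detected genes, and 0 lower. The median was 0.28. The effector IFI27 had levels of 8.81 and 10.1, a ratio of 1.26, IFI6 had levels of 8.63 and 9.84, a ratio of 1.21, and OASL was at 1.18. EIF2AK2, the kinase that senses double-stranded RNA, was at -0.31 and HERC5 at -0.15. All 7 detected genes of antigen presentation and ligands were above 0, with a median of 0.63. The mock level of these interferon genes was 0.48 higher here than on the miR-139 arrays, as a median, and against the miR-139 mocks the list had a median of 0.87.

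Targets of the tumour suppressor p53, which HCT116 cells carry in its wild-type form, differed by role. Over 29 detected genes the median was 0.16, with 3 called higher, beside 0.517% of all detected genes, and 0 lower. The mock level of these genes was 0.69 higher here than on the miR-139 arrays, as a median, and the list had a median of 1.05 against the miR-139 mocks and 0.70 against the mean of the 4 HCT116 mocks. The apoptosis group had a median of 0.76, with 8 of 9 above 0, where 51.4% of all detected genes were. The cell cycle arrest group had a median of 0.51, and the feedback and repair group one of -0.07. Against the miR-139 mocks these medians were 1.63, 1.40 and 0.38, so the feedback and repair group lay above 0 there. TP53INP1 had levels of 8.57 and 9.98, a ratio of 1.41, the cyclin-dependent kinase inhibitor CDKN1A had levels of 7.92 and 9.27, a ratio of 1.35, and TP53I3 was at 1.11. CCNG1 was at -0.79, CYFIP2 at -0.60 and MDM2, the main brake on p53, at -0.07, or 0.50 against the miR-139 mocks. On the miR-139-3p array MDM2 was at 1.56 and the list had a median of 1.39.

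NF-kB targets and immediate early genes differed within their list, whose 36 detected genes had a median of 0.04. Of 15 detected NF-kB targets, 14 were above 0, where 51.4% of all detected genes were, with a median of 0.47. 2 were called higher, CXCL1 and BIRC3, beside 0.517% of all detected genes. Against the miR-139 mocks the median of these NF-kB targets was 0.95, with CXCL1 at 3.59 and BIRC3 at 3.81, and that of the whole list was 0.36. Of 21 detected immediate early genes, 16 were below 0, where 48.6% of all detected genes were, with a median of -0.12. MYC, at -1.08, was the 1 called lower, beside 0.925% of all detected genes. MYC was at -0.56 against the miR-139 mocks, where its call was lost. EGR1 was at -0.94 here, and at 1.94 on the miR-139-5p array and 1.05 on the miR-143-5p array.

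The oxidative phosphorylation list split by genome. All 11 mitochondrially encoded transcripts on the array were above 0, where 51.4% of all detected genes were, with a median of 0.90. 5 were called higher, beside 0.517% of all detected genes: COX1, COX2 at 1.28, ND3 at 1.17, ND4L at 1.15 and ND2 at 1.07. With the scanner's log ratio ND2 was at 0.98 and ND4L at 0.89, both short of the 2-fold rule. The same transcripts had medians of 1.08 on the miR-139-3p array, 0.39 on the miR-143-5p array and 0.01 on the miR-139-5p array. ND4L was at 0.70 against the miR-139 mocks, and NDUFA4, a nuclear-encoded subunit of the respiratory chain, was at -0.85 there and at -1.18 against the own mock. The 20 nuclear genes of complex I had a median of 0.03 and the 34 of complexes II to V one of -0.03. Among nuclear genes, SDHD and NDUFA4 were the 2 called lower, beside 0.925% of all detected genes, with SDHD at -1.94. Cytosolic ribosomal protein genes had a median of 0.14 over 76, from RPS23 at -1.12 and RPL24 at -0.62 to RPL28 at 0.61 and RPL41 at 0.65.

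In the list for endoplasmic reticulum translocation and secretion, the median of 47 detected genes was 0.10. SEC61B was the 1 gene called, on the lower side, beside 0.925% of all detected genes. The cargo receptor TMED10 was next lowest at -0.94, and the coat proteins COPE and SEC31A were highest, both at 0.86. The ATF4 and unfolded protein response list had a median of -0.14, with DNAJB11 at -0.83, ATF4 at -0.69, SESN2 at 0.57 and DNAJB9 at 0.83. Of its 33 detected genes 0 were called, where 0.925% of all detected genes were called lower and 0.517% higher. In glycolysis and hypoxia, 2 of 32 were called lower, beside 0.925% of all detected genes, and the median was -0.04. They were HK2 and PGAM1, the latter at -1.04 (-0.99 after the GC curve and -0.64 with the median over probes). PFKL and ALDOC were highest at 0.79 and 0.83. In sterol and fatty acid synthesis, 0 of 33 were called, beside 0.925% of all detected genes lower and 0.517% higher. The median was 0.13, from ELOVL6 at -0.71 to DHCR7 at 0.49 and TM7SF2 at 0.70.

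Genes of the miRNA pathway had a median of -0.19, with 15 of 19 below 0, where 48.6% of all detected genes were. The helicase DDX6, which acts in silencing and mRNA decay, had levels of 8.77 and 7.52, a ratio of -1.24. DDX6 was the 1 gene called, beside 0.925% of all detected genes called lower. With the median over its probes DDX6 was at -0.76. The decapping enzyme DCP2 was at -0.63, the nuclear processing enzyme DROSHA at -0.60, AGO2 at -0.48, DICER1 at 0.47 and TNRC6C at 0.58.

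Of 16 epithelial markers 12 were detected, KRT19 at a mock level of 15.3, KRT18 at 14.4 and EPCAM at 12.5, and KRT20, LGALS4, CDH17 and VIL1 were not well above background. Their ratios ran from -0.52 for EPCAM and -0.38 for CLDN3 to 0.56 for ELF3 and 0.73 for CLDN4. Of the 12 detected, 0 were called, beside 0.925% of all detected genes lower and 0.517% higher. Of 13 mesenchymal and stromal markers 6 were detected, at mock levels of 5.88 to 6.74, and their ratios lay between -0.24 for SNAI2 and 0.32 for FN1, with SPARC at -0.12 and COL1A1 at 0.25. In such a bulk sample, fewer cells of a type and less RNA per cell cannot be told apart. DCN, LUM, COL1A2 and COL3A1 were not well above background. The leukocyte markers PTPRC and CD14 were at mock levels of 5.97 and 6.03.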

How the data were processed

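The members and gene lists were chosen with earlier results of these data known. Groups were taken from the labels. Per the file headers, the deposited scanner output gave the mean intensity of each spot in both channels, its local background, calls of outlier and well-above-background spots, and a log10 ratio of processed Cy5 over Cy3. The deposited table of the series holds the same log10 ratios. Background correction by normexp (offset 50), loess within each array with control spots at weight 0, and quantile normalisation of mean levels between the 8 arrays, which keeps log2 ratios, were run with limma 3.58.1 in R 4.3.3. Outlier spots were dropped and spots of a probe averaged. A gene was its probe with the highest mean level over the 8 arrays. Levels are log2 intensities, compared only within a gene. Of 43315 gene names, 23540 had a current RefSeq symbol, given in brackets where it differs.

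Named genes were the 15 lowest and 15 highest with a symbol, well above background in both channels, with other detected probes going the same way and 1 sign under all alternatives below, the 2 lowest and 2 highest of each list, and every detected miR-143-3p target. Other genes were named after their values were seen. Some genes that the rule names are not reported here by name and remain in the counts and medians. The GC curve was a lowess fit with a span of 0.3. Steps were checked on simulated data. A total of 16 gene lists were written from general knowledge, and the list of small nucleolar RNAs and the ranking of all seeds were added after values were seen. Alternatives were no background correction, the scanner's log ratio, median centring, an offset of 10, both channels well above background, no filter, the median over probes, the GC curve and 2 other choices of mock.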

Additional observations from a re-analysis of the deposited data

How the results depend on the processing

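The median over all genes moved by under 0.05 under every alternative. Genes called lower were 339 without background correction, 1002 with the scanner's log ratio, 405 with a normexp offset of 10, 478 against the miR-139 mocks and 287 against the mean of the 4 HCT116 mocks, instead of 186. Genes called higher were 870, 197, 487 and 264 with the last 4 of these, instead of 104. The share of called genes that were higher, 35.9%, was 46.5% with the scanner's log ratio, 50.5% against the miR-139 mocks and 47.9% against the 4 mocks. The difference between the quintiles of probes highest and lowest in GC was 0.22 without background correction and 0.39 with the scanner's log ratio. It was 0.26 with the offset of 10 and 0.032 without a filter on dim probes. After the GC curve, which was fitted to this trend, it was -0.017. Pearson's coefficient of log2 ratio with GC was 0.072 after the curve, so part of the trend remained. The miR-143-3p difference of medians was 0.11 with the scanner's log ratio. The miR-145-3p difference of means was -0.30 with the scanner's log ratio, -0.22 with the offset of 10 and -0.066 without the filter, and it was the lowest of all seeds under each of the 11 settings. The median of the miR-143-3p targets was 0.064 after the GC curve and 0.076 against the 4 mocks. Against the miR-139 mocks and the 4 mocks, the medians turned to -0.46 and -0.25 for sterol and fatty acid synthesis, to 0.027 and 0.048 for the ATF4 list and to -0.037 and -0.062 for mesenchymal markers. The glycolysis median turned to 0.041 under median centring and 0.00094 against the miR-139 mocks, and the ribosomal protein median to -0.087 with the scanner's log ratio. The cause of these changes was not tested. The mitosis median stayed between -1.22 and -0.71, the replication median between -0.90 and -0.44 and the interferon median between 0.22 and 0.87. No paired analysis was possible because each miRNA has 1 array. Of the detected genes, 1790 were well above background in 1 channel only, at a median level of 5.89 beside 7.29 for the others, and ratios of such dim genes are drawn towards 0.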

Other observations

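Small nucleolar and Cajal body RNAs, which guide the modification of ribosomal and spliceosomal RNA, were taken by their name prefixes after the values had been seen. Of 306 on the array 228 were detected, 185 were above 0, where 51.4% of all detected genes were, 21 were called higher, beside 0.517% of all, and 0 lower, and the median log2 ratio was 0.24. The median was 0.10 against the miR-139 mocks, 0.11 without a filter on dim probes and 0.63 with the scanner's log ratio. The 115 C/D box RNAs had a median of 0.17 and the 113 H/ACA box and Cajal body RNAs one of 0.26, with SNORD86 lowest at -0.72. With the GC curve subtracted the median of all 228 was 0.21, and the median GC content of their probes was 45.0%, beside 43.3% over all detected genes. The same RNAs had a median of 0.23 on the miR-143-5p array, 0.24 on the miR-139-3p array and -0.02 on the miR-139-5p array. The 2 miR-143 arrays have mock channels that differ at few genes, and the labels do not say whether these were of 1 extract. Their ratios therefore cannot be taken as independent of each other.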
